A study of Rattus norvegicus with 14 samples.

Results

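Tnc, Thbs1, Thbs2, Postn and Fn1 encode tenascin-C, thrombospondin-1, thrombospondin-2, periostin and fibronectin, secreted proteins that act on cells from the extracellular matrix. They were taken by gene symbol from the deposited expression tables, where each had 1 row, and are 5 of the 17312 genes measured. Of these, 4 passed the filter on low values and were tested, and Thbs2 did not.

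The measurements are RNA-seq of polyadenylated RNA from rat aortic smooth muscle cells, a commercially obtained culture, in 14 libraries made with a stranded kit and read as 40 base single ends. All cells were first kept in serum-free medium for 24 h. The unstimulated group (0 h) had 2 libraries. The other 4 groups had 3 libraries each and received platelet-derived growth factor (PDGF), a smooth muscle mitogen, at 925 ng/ml per the labels, for 2 h or 24 h. In a pair of those groups the PDGF followed 3 h with 500 nM JQ1, a small molecule that displaces BET bromodomain proteins from acetylated histones. The comparisons ask how PDGF moved these transcripts early and late and how their levels differed when BET proteins were inhibited. JQ1 alone and unstimulated cells at 2 h or 24 h were not analysed here, so PDGF and time in culture enter each comparison with 0 h together. Nothing in the labels says that libraries of a group came from separate cultures, so the p-values below reflect library-to-library spread that may be partly or wholly technical. Titles of libraries without JQ1 end in letters from A to D and those with JQ1 in letters from E to H. JQ1 and the meaning of these letters cannot be told apart.

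Matricellular proteins are matrix proteins that signal to cells more than they bear load. Tenascin-C and periostin are known to be sparse in the resting artery and abundant in the remodelling wall, where they bind integrins and loosen or reorganise cell adhesion. Thrombospondin-1 activates latent TGF-beta, binds CD47 and CD36 and promotes smooth muscle migration, and thrombospondin-2 is its close relative with an anti-angiogenic role. Fibronectin is the fibrillar scaffold to which tenascin-C, thrombospondin-1 and periostin bind, and it is held by the integrin made of the Itga5 and Itgb1 products.

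Levels are normalised FPKM, that is fragment values corrected for transcript length and sequencing total, further normalised by the authors, given with the SD (n = 2 for unstimulated, n = 3 for every other group). Libraries are named by group and by the digit that ends their column name. Differences are on the log2(normalised FPKM + 1) scale with the SE of a limma model over all 14 libraries, and "rose" or "fell" marks a Benjamini-Hochberg adjusted p under 0.05 over 10133 tested genes. The authors' normalisation shifts whole groups: on it the median difference of all tested genes was 0.01 for PDGF at 2 h and 0.41 for PDGF at 24 h against unstimulated, and with JQ1 against PDGF alone it was -0.29 at 2 h and -0.48 at 24 h. Each comparison was therefore repeated on unnormalised FPKM divided by size factors, called the median-centred scale, where all of these medians lay within 0.06 of 0. The size factors ran only from 1.015 to 1.024, so this scale stays close to the unnormalised FPKM. The authors' normalisation was not 1 factor per library. In PDGF 2 h library 2, normalised over unnormalised FPKM was 1.14 for Tnc and 1.25 for Fn1. The SD of Fn1 and Thbs1 was larger after normalisation in every group. For Fn1 in unstimulated cells it was 455 normalised and 140 unnormalised. A scale with medians near 0 cannot show a difference in RNA amount shared by most genes. In bulk RNA, fewer cells of a type and less RNA per cell cannot be told apart.

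In unstimulated cells Fn1 stood far above the other genes. Its level was 1687 and 2330.2 normalised FPKM in libraries 0 and 1, and its mean ranked 35 among 17312 genes. Thbs1 stood at 309 and 367 and Postn at 249 and 266, so the lowest Thbs1 library was above the highest Postn library. Tnc was at 11.9 and 14.7, and its mean ranked 5112. The order at rest was thus Fn1, Thbs1, Postn and Tnc, with no overlap between neighbours, on a scale per transcript length.

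Thbs2 was near the floor of the tables throughout. Its unnormalised FPKM was listed at 0 in 7 of 14 libraries and reached at most 0.275, in library 0 of PDGF 2 h. Normalised values of those 7 libraries ran from 0.0908 to 0.121, so a normalised value near these need not be a detected transcript. An exact 0 in such a table can be a failed estimate, and the read depth behind it is unknown. With the filter removed (17312 genes in the limma fit), no comparison of Thbs2 was called, the smallest adjusted p being 0.347. Of this thrombospondin pair, Thbs1 alone passed the filter.

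**Figure D1:**
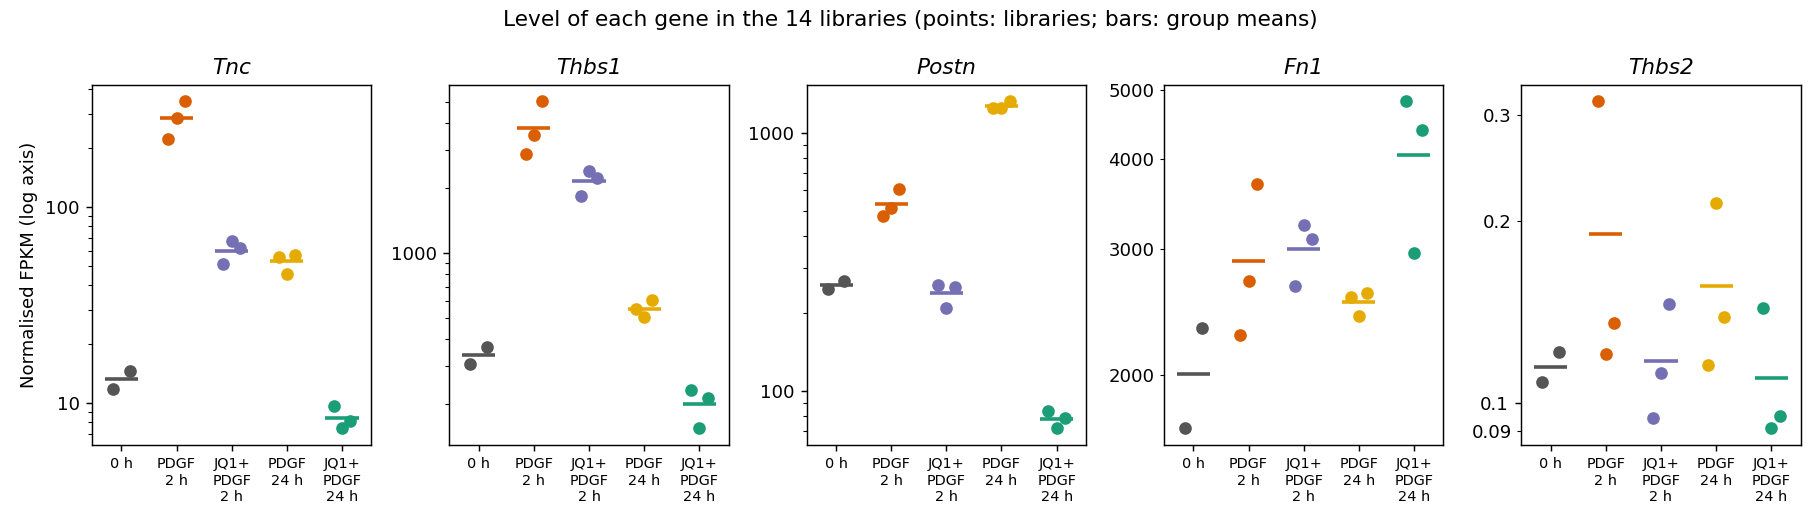
Normalised FPKM (log axis, a different range in each panel) of Tnc, Thbs1, Postn, Fn1 and Thbs2 in each of the 14 libraries, as points, with bars at the group means (2 unstimulated libraries, 3 in each other group). Tnc and Thbs1 are highest with PDGF at 2 h, Postn with PDGF at 24 h and Fn1 with JQ1 plus PDGF at 24 h, and Thbs2 stays below 0.32 in every library. The Thbs2 points include libraries with an unnormalised value of 0, plotted at 0.0908 to 0.121.

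RefSeq promoter entries (build GRCr8) were found for 3 of the 5 genes, Tnc, Thbs1 and Postn. Fn1 and Thbs2 had no entry, so these 3 cannot be set against the other members. The 30 bases from 45 to 16 before the listed start are shown, with the longest run of A and T in capitals. This window surrounds, and is wider than, the place where a TATA element usually sits.
Tnc: gaggaaggagctcccTATATAAgccagcca
Thbs1: aatgcgggagcctcTTTAAAAggtccaggg
Postn: cTATAAATTcagctctctagaacacaggcc
The windows lie at chr5:82476147-82476176 (minus strand), chr3:125510205-125510234 (plus strand) and chr2:140678016-140678045 (plus strand) in the same order. Each held an A/T run of at least 7 bases, which 11.6% of 33469 RefSeq promoters hold in this window. As 7 is the length of the shortest of these 3 runs, no enrichment can be read from this share. The run began 30 bases before the listed start in Tnc, 31 in Thbs1 and 44 in Postn. The listed start lay 287 bases inside the outer RefSeq boundary of the gene for Postn and 66 for Tnc. On both strands of the 250 bases before the start, none of the 3 held the AP-1 motif TGANTCA, the EGR motif GCGNGGGCG or a CArG box, which 6.34%, 4.29% and 1.5% of all promoters hold. TATAAA (12.9% of promoters) occurred in Tnc at 208 to 203 bases before the start and in Postn at 44 to 39, inside the run shown. The SMAD motif CAGACA (17.2%) occurred in Tnc alone, 72 to 67 bases before the start. The E-box CANNTG (65.5%) occurred at 2 places in Tnc, at 2 in Postn and not in Thbs1. A match describes letters only.

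After 2 h of PDGF the Tnc and Thbs1 transcripts had multiplied, Postn had risen by a smaller step, and Fn1 did not pass the test. Tnc, a ligand of several integrins, stood at 224, 284 and 347 normalised FPKM in libraries 0, 1 and 2 against 11.9 and 14.7 unstimulated. Every PDGF library was far above both unstimulated libraries. The mean was 285 ± 61.6 against 13.3 ± 1.95, 21.4-fold, and the difference of 4.31 ± 0.19 (limma, adjusted p = 8.14e-11) ranked 36 from the highest of 10133 genes. Thbs1 stood at 2885, 3505 and 5039 against 309 and 367, also without overlap, and library 2 was well above the other two. Its mean of 3809.6 ± 1109 was 11.3-fold that of unstimulated cells (3.46 ± 0.22, limma, adjusted p = 6.66e-09), and it ranked 16 among all genes in that group.

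Postn, whose product links collagen and integrins, was at 477, 514 and 604 after 2 h of PDGF against 249 and 266. The ranges did not overlap, and the mean ratio was 2.07 (1.04 ± 0.13, limma, adjusted p = 1.7e-05). Fn1 was at 2274, 2704 and 3692 against 1687 and 2330.2, so the lowest PDGF library lay between the unstimulated ones. Its difference of 0.51 ± 0.23 did not pass (limma, adjusted p = 0.104), although it did on the median-centred scale (0.40, adjusted p = 0.0220) and without PDGF 2 h library 0 (0.67, adjusted p = 0.0491). In all, 3 of the 4 tested genes rose and 0 fell, where 17.7% of all tested genes rose and 12.7% fell. The count over all genes depended on the unstimulated libraries: 3078 genes were called with both, 1606 without library 0 and 1942 without library 1. On the median-centred scale 2034 genes rose and 1936 fell.

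After 24 h of PDGF the order of the genes had turned: Postn stood above Thbs1 and Tnc had come most of the way back. Postn was at 1246, 1249.6 and 1324 normalised FPKM against 249 and 266 unstimulated, a narrow group far above both. Its mean of 1273 ± 43.8 was 4.95-fold that of unstimulated cells (2.30 ± 0.13, limma, adjusted p = 4.96e-09) and ranked 87 among all genes. Tnc was at 55.8, 45.8 and 57.3, still above the 11.9 and 14.7 of unstimulated cells in every library (1.92 ± 0.19, limma, adjusted p = 1.46e-06). Thbs1 was at 553, 508 and 606 against 309 and 367, without overlap.

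The rise of Thbs1 at 24 h, 0.72 ± 0.22 (limma, adjusted p = 0.0144), was not called on the median-centred scale (0.24, adjusted p = 0.190), without unstimulated library 0 (0.59, adjusted p = 0.133) or without the filter (adjusted p = 0.0568). Fn1 was at 2572, 2420.2 and 2603, just above both unstimulated libraries, and its difference of 0.35 ± 0.23 did not pass (limma, adjusted p = 0.228) and was -0.14 on the median-centred scale. Thus 3 of the 4 tested genes rose and 0 fell, where 37.7% of all tested genes rose and 4.85% fell. The median-centred scale gave 1478 genes higher and 1341 lower, and without unstimulated library 0 the total of 4314 calls became 2487.

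Between 2 h and 24 h of PDGF, Tnc and Thbs1 fell while Postn rose. Tnc fell from a mean of 285 ± 61.6 to 53.0 ± 6.23 normalised FPKM (-2.39 ± 0.17, limma, adjusted p = 2.7e-08). Thbs1 fell from 3809.6 ± 1109 to 555 ± 49.0 (-2.74 ± 0.19, limma, adjusted p = 3.17e-08), a difference that ranked 56 from the lowest. Neither gene's libraries overlapped between the times. Postn rose from 531 ± 65.6 to 1273 ± 43.8 (1.27 ± 0.11, limma, adjusted p = 5.01e-07), again without overlap. Of the 4 tested genes, 1 rose and 2 fell, where 44.5% of all tested genes rose and 11.8% fell, against 2659 higher and 2579 lower on the median-centred scale. Fn1 differed by -0.16 ± 0.20 (limma, adjusted p = 0.518). Its difference was -0.54 on the median-centred scale, where it was called (adjusted p = 0.00128), and 0.029 without PDGF 2 h library 2. Longer PDGF and longer culture cannot be told apart in this comparison.

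With JQ1, Tnc, Thbs1 and Postn were lower at 2 h by different amounts, Tnc having the largest difference from PDGF alone. Tnc was at 51.3, 67.4 and 61.8 normalised FPKM with JQ1 plus PDGF at 2 h, against 224, 284 and 347 with PDGF alone. All JQ1 libraries were below all PDGF libraries, and the mean was 4.73-fold lower (-2.21 ± 0.17, limma, adjusted p = 1.89e-07, rank 65 from the lowest). Thbs1 was at 1845, 2409 and 2232 against 2885, 3505 and 5039. It too did not overlap, but the mean was 1.76-fold lower (-0.79 ± 0.19, limma, adjusted p = 0.00427), and on the median-centred scale the difference was -0.42 (adjusted p = 0.0110). Postn, at 258, 210.2 and 253 against 477, 514 and 604, was 2.21-fold lower (-1.14 ± 0.11, limma, adjusted p = 3.15e-06).

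Fn1 was at 2661, 3243 and 3101 with JQ1 at 2 h against 2274, 2704 and 3692, and the ranges overlapped. Its difference of 0.08 ± 0.20 did not pass (limma, adjusted p = 0.788), was -0.079 without PDGF 2 h library 0, and was called higher on the median-centred scale (0.46, adjusted p = 0.00518). At this time 0 of the 4 tested genes rose and 3 fell, where 7.24% of all tested genes rose and 34% fell. On the median-centred scale 2003 genes were higher and 2143 lower.

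At 24 h Postn was, of the 4 tested genes, the lowest relative to PDGF alone. It was at 84.0, 71.8 and 78.9 normalised FPKM with JQ1 plus PDGF against 1246, 1249.6 and 1324 with PDGF. The groups were far apart, the mean 78.3 ± 6.12 being 16.3-fold lower (-4.01 ± 0.11, limma, adjusted p = 1.98e-12), a difference that ranked 26 from the lowest of 10133 genes. Tnc was at 9.74, 7.46 and 8.12 against 55.8, 45.8 and 57.3, 6.28-fold lower (-2.52 ± 0.17, limma, adjusted p = 7.4e-09). Thbs1 was at 233, 155 and 214 against 553, 508 and 606, 2.77-fold lower (-1.48 ± 0.19, limma, adjusted p = 1.1e-05), with -0.98 on the median-centred scale (adjusted p = 1.48e-05). For both, every JQ1 library was below every PDGF library.

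Fn1 went the other way. It was at 4822, 2964 and 4402 with JQ1 plus PDGF at 24 h against 2572, 2420.2 and 2603, with no overlap although library 1 was close. The mean was 1.60-fold higher (0.65 ± 0.20, limma, adjusted p = 0.0140), and it ranked 9 among all genes in the JQ1 group. The call was lost without the filter (adjusted p = 0.0882), without JQ1 plus PDGF 24 h library 0 (0.51, adjusted p = 0.0611) and without library 2 (0.58, adjusted p = 0.0561). Before normalisation the gap was wider, 4517, 3521 and 4678 unnormalised FPKM against 1893, 1871 and 1923. The median-centred difference, which rests on nearly the same values, was 1.15 (limma, adjusted p = 2.17e-06). Of the 4 tested genes, 1 rose and 3 fell, where 4.61% of all tested genes rose and 48.5% fell, against 2305 higher and 2578 lower on the median-centred scale.

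Whether the JQ1 difference itself changed between the times was tested as an interaction. For Postn the JQ1 difference was further below 0 at 24 h than at 2 h, by -2.87 ± 0.16 on the log2 scale (limma, adjusted p = 1.29e-08). For Tnc, where JQ1 libraries were low at both times, the change was -0.31 ± 0.23 (limma, adjusted p = 0.383). Thbs1 gave -0.69 ± 0.27 (limma, adjusted p = 0.0803), which was called on the median-centred scale (-0.56, adjusted p = 0.0212) and without PDGF 2 h library 2 (-0.92, adjusted p = 0.0111). Fn1 gave 0.57 ± 0.29 (limma, adjusted p = 0.173), called on the median-centred scale (0.70, adjusted p = 0.00481). Thus 0 of the 4 tested genes were called higher and 1 lower, where 4.82% of all tested genes were higher and 17.5% lower, and 1343 and 1637 genes on the median-centred scale.

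**Figure D2:**
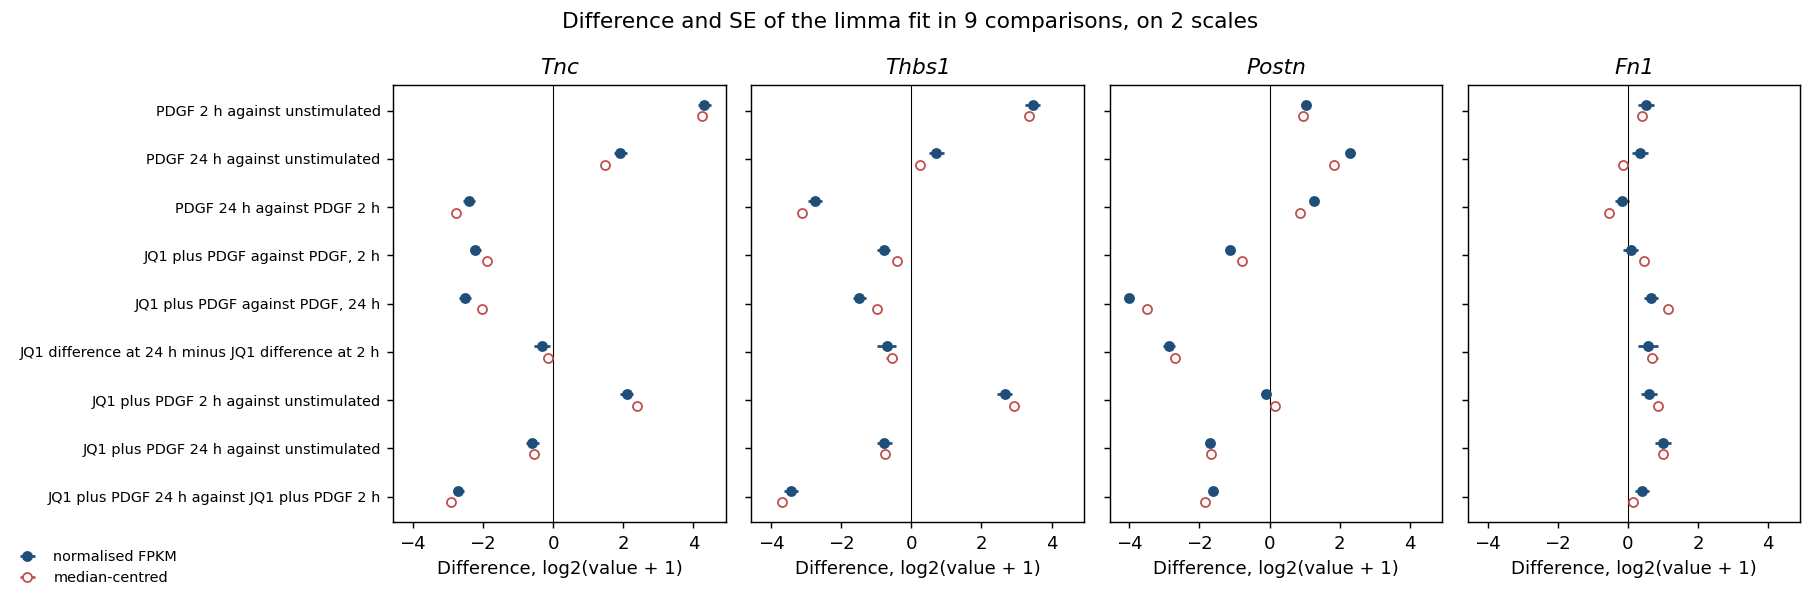
Differences on the log2(value + 1) scale with the SE of the limma fit for Tnc, Thbs1, Postn and Fn1 in 9 comparisons, from normalised FPKM (filled) and median-centred values (open). The 2 scales fall on different sides of 0 for Fn1 with PDGF at 24 h against unstimulated (0.35 and -0.14) and for Postn with JQ1 plus PDGF at 2 h against unstimulated (-0.10 and 0.16), and Postn with JQ1 at 24 h is far below 0 on both (-4.01 and -3.50).

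Set against unstimulated cells, Tnc and Thbs1 were higher with JQ1 plus PDGF at 2 h, and Postn was not called. Without cells given JQ1 alone, a lower starting level and a smaller response to PDGF cannot be told apart. With JQ1 plus PDGF at 2 h, Tnc was 4.53-fold (2.10 ± 0.19, limma, adjusted p = 3.52e-07) and Thbs1 6.39-fold the unstimulated mean (2.67 ± 0.22, limma, adjusted p = 1.34e-07). Postn, at a mean of 240.3 ± 26.2 against 257 ± 12.2, differed by -0.10 ± 0.13 (limma, adjusted p = 0.540), with overlapping libraries and 0.16 on the median-centred scale. These comparisons use the same unstimulated libraries as the PDGF ones.

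Fn1 was called higher than unstimulated with JQ1 plus PDGF at 2 h (0.59 ± 0.23, limma, adjusted p = 0.0444), and its libraries did not overlap. On the median-centred scale the difference was 0.85 (adjusted p = 8.91e-05). The call was lost without unstimulated library 0 (0.36, adjusted p = 0.344), without JQ1 plus PDGF 2 h library 1 or 2 (adjusted p = 0.111 and 0.0961) and without the filter (adjusted p = 0.186). It was also lost without PDGF 24 h library 0, 1 or 2 (adjusted p = 0.0530, 0.0552 and 0.0582) and without JQ1 plus PDGF 24 h library 2 (adjusted p = 0.0509), which enter only through the shared spread. Thus 3 of the 4 tested genes rose and 0 fell, where 13.2% of all tested genes rose and 33.7% fell, against 2557 higher and 2701 lower on the median-centred scale.

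After 24 h of PDGF with JQ1, 3 of the genes stood below the unstimulated level and Fn1 above it. Postn had fallen to a mean of 78.3 ± 6.12 from 257 ± 12.2 normalised FPKM, 3.29-fold lower (-1.71 ± 0.13, limma, adjusted p = 3.58e-08). Thbs1 was lower by a smaller step (-0.76 ± 0.22, limma, adjusted p = 0.00980), and so was Tnc (-0.60 ± 0.19, limma, adjusted p = 0.0169). Neither overlapped the unstimulated libraries, but without unstimulated library 1 the calls were lost for Thbs1 (-0.64, adjusted p = 0.0925) and Tnc (-0.46, adjusted p = 0.157), and for Tnc also without JQ1 plus PDGF 24 h library 1 (-0.52, adjusted p = 0.0588).

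Fn1 was 2.02-fold the unstimulated mean at that time (1.004 ± 0.229, limma, adjusted p = 0.00235), with 0.77 (adjusted p = 0.0524) without unstimulated library 0. Of the 4 tested genes, 1 rose and 3 fell, where 17.6% of all tested genes rose and 23.4% fell, against 2504 higher and 2474 lower on the median-centred scale. The median of all tested genes was -0.07 here.

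Between 2 h and 24 h in the presence of JQ1, all of Thbs1 (-3.43 ± 0.19, limma, adjusted p = 1.26e-09), Tnc (-2.69 ± 0.17, limma, adjusted p = 3.83e-09) and Postn (-1.60 ± 0.11, limma, adjusted p = 2.44e-08) fell. Postn therefore had opposite directions with time in the PDGF groups, where it rose, and in the JQ1 groups, which is the interaction given above. Fn1 gave 0.41 ± 0.20 (limma, adjusted p = 0.114) with overlapping libraries, and was called without JQ1 plus PDGF 24 h library 1 (0.62, adjusted p = 0.0227). In this comparison 0 of the 4 tested genes rose and 3 fell, where 29% of all tested genes rose and 17.4% fell, against 2528 higher and 2737 lower on the median-centred scale.

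A share within a library does not depend on a factor common to all its genes. Of the summed unnormalised FPKM of the 5 genes, Fn1 held 76.8% in unstimulated cells, Thbs1 12.9%, Postn 9.82% and Tnc 0.493% (group means). With PDGF at 2 h Thbs1 held most, 50.5%, and Fn1 38.4%. With PDGF at 24 h Fn1 held 57.3% and Postn 28.9%, and Thbs1 was back at 12.6%. JQ1 plus PDGF at 24 h left Fn1 with 93.3%, Thbs1 with 4.66%, Postn with 1.86% and Tnc with 0.199%. The 5 genes together made up 0.481 ± 0.037% (SD, n = 2) of all gene FPKM unstimulated, 1.08 ± 0.14% with PDGF at 2 h, 0.906 ± 0.064% with JQ1 plus PDGF at 2 h, 0.565 ± 0.033% with PDGF at 24 h and 0.734 ± 0.12% with JQ1 plus PDGF at 24 h (SD, n = 3 each).

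Ratios of pairs were taken within each library. Fn1 over Postn was 7.87 ± 1.02 (SD, n = 2) unstimulated, 1.98 ± 0.051 with PDGF at 24 h and 51.0 ± 8.18 with JQ1 plus PDGF at 24 h (SD, n = 3 each). The ratio thus ran from its lowest to its highest value between the 24 h groups, with no overlap between libraries. Thbs1 over Tnc was 13.1 ± 0.52 with PDGF at 2 h and 36.4 ± 0.42 with JQ1 plus PDGF at 2 h, again with no overlap between libraries. Thbs1 over Postn was 7.01 ± 1.02 with PDGF at 2 h, 9.22 ± 2.16 with JQ1 plus PDGF at 2 h, where libraries ran from 7.24 to 11.5 and overlapped those with PDGF, and 0.436 ± 0.027 with PDGF at 24 h. No test was run on these ratios.

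**Figure D3:**
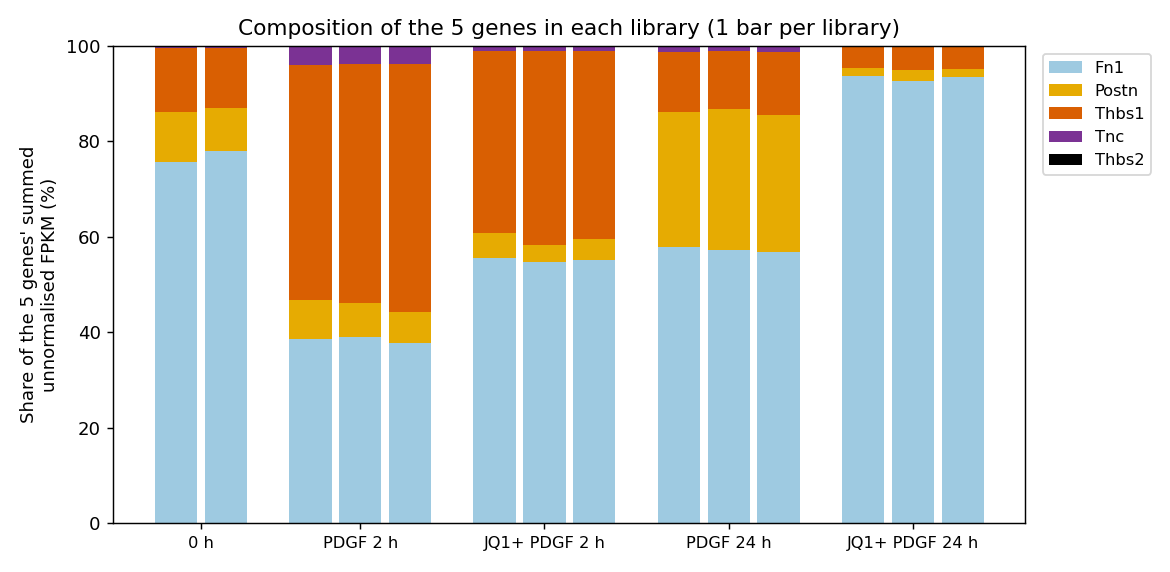
Share of the summed unnormalised FPKM of Tnc, Thbs1, Thbs2, Postn and Fn1 (percent, 1 bar per library, 2 unstimulated bars and 3 in each other group). Thbs1 holds the largest block with PDGF at 2 h, Postn widens with PDGF at 24 h, and Fn1 fills over 90% of each bar with JQ1 plus PDGF at 24 h, while Thbs2 is too low to be seen.

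The genes whose levels ran most like each member's were found by Pearson r of log2(normalised FPKM + 1) over the 14 libraries, among 9798 candidates. The libraries and their normalisation are shared by all genes, so r is a description. For Tnc they were Klhl26, the interferon-induced kinase gene Eif2ak2 and the peptide transporter gene Tap1 (r = 0.984 each). For Thbs1 they included Fermt2, which encodes the integrin activator kindlin-2 (r = 0.992), and Rcan1, a calcineurin regulator (r = 0.985). Fermt2 went from 111 unstimulated to 270.2 with PDGF at 2 h and 83.7 with JQ1 plus PDGF at 24 h (group means, normalised FPKM), a narrower span than that of Thbs1.

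For Postn the closest were Ifitm3, an interferon-induced membrane protein gene (r = 0.987), Smoc2, which encodes another matricellular protein (r = 0.986), and Mbip (r = 0.984). Smoc2 stood at 6.70 normalised FPKM unstimulated, 40.9 with PDGF at 24 h and 1.68 with JQ1 plus PDGF at 24 h. Fn1 had less close companions: Sdad1 (r = 0.929), Pabpc1, which encodes a poly(A)-binding protein (r = 0.906), and Aimp2 (r = 0.892).

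Family relatives were few. Of 7 other tenascin, thrombospondin and periostin-like genes, 3 were tested, while Tnn, Tnr and Thbs4 failed the filter and Tnxb had no row. Thbs3 rose with PDGF at 24 h from 10.96 to 25.8 normalised FPKM (1.17 ± 0.17, limma, adjusted p = 7.02e-05) and with JQ1 fell to 1.81 (-3.25 ± 0.15, limma, adjusted p = 1.39e-10). Comp, the cartilage thrombospondin, was higher with JQ1 at 24 h, 3.78 against 0.783 (1.47 ± 0.26, limma, adjusted p = 0.000215). Tgfbi, the relative of periostin, was low throughout and fell with JQ1 at 24 h from 1.30 to 0.122 (-0.90 ± 0.34, limma, adjusted p = 0.0367; -0.67 and not called on the median-centred scale).

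Receptors of the members were measured for 15 of 18 listed genes and tested for 14, Itgav, Itga9 and Itga3 having no row. With PDGF at 2 h 6 rose and 0 fell (6 and 2 on the median-centred scale), led by Itga5, the fibronectin receptor subunit, from 31.5 to 289 normalised FPKM (3.14 ± 0.15, limma, adjusted p = 2.74e-10), and Sdc4, a heparan sulphate co-receptor for fibronectin, from 78.5 to 550.1 (2.79 ± 0.13, limma, adjusted p = 1.64e-10). With PDGF at 24 h 11 rose and 0 fell (9 and 1 on the median-centred scale), among them Itgb5, a periostin-binding integrin subunit, from 83.0 to 342. The median difference of the list was 0.16 at 2 h and 0.88 at 24 h, beside 0.01 and 0.41 for all tested genes. Of all tested genes, 17.7% rose and 12.7% fell at 2 h, and 37.7% rose and 4.85% fell at 24 h.

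With JQ1 2 receptor genes rose and 4 fell at 2 h (4 and 3 on the median-centred scale), and 2 rose and 9 fell at 24 h (4 and 8). Itga8, a subunit that binds tenascin-C and fibronectin, fell furthest at 24 h, from 96.0 to 9.56 normalised FPKM (-3.20 ± 0.14, limma, adjusted p = 9.48e-11), and Itga5 fell from 94.4 to 27.8 (-1.73 ± 0.13). The receptor genes that rose at 24 h, named after their values were seen, were Sdc4 (0.79 ± 0.11) and Sdc1 (0.43 ± 0.13). The list's median was -0.07 at 2 h and -0.88 at 24 h, beside -0.29 and -0.48 for all tested genes. Of all tested genes, 7.24% rose and 34% fell at 2 h, and 4.61% rose and 48.5% fell at 24 h.

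Of 13 genes for collagens, cross-linking enzymes and other matrix partners, 12 were tested. With PDGF at 2 h 2 rose and 0 fell (4 and 0 on the median-centred scale), the larger rise being that of Ltbp1, a latent TGF-beta binding protein gene (0.89 ± 0.14). At 24 h of PDGF 5 rose and 2 fell, but 2 and 4 on the median-centred scale. Col1a1 rose by 1.64 ± 0.18, while the transglutaminase gene Tgm2 fell by 2.31 on the log2 scale. With JQ1 0 rose and 4 fell at 2 h (3 and 2 on the median-centred scale), and 0 rose and 11 fell at 24 h (1 and 10). Of all tested genes, 17.7% and 37.7% rose with PDGF at 2 h and 24 h, and 12.7% and 4.85% fell. With JQ1 34% and 48.5% of them fell at these times, and 7.24% and 4.61% rose. The list's median was 0.03 with PDGF at 2 h, 0.44 with PDGF at 24 h and -0.29 with JQ1 at 2 h, beside 0.01, 0.41 and -0.29 for all tested genes, so these stood near the background.

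The largest of these at 24 h were Col3a1, a fibrillar collagen gene, from 1221 to 36.7 normalised FPKM (-5.01 ± 0.13, limma, adjusted p = 7.55e-13), and Lox, lysyl oxidase, from 150.0 to 4.19 (-4.87 ± 0.16, limma, adjusted p = 2.74e-12). The median of the list at that time was -1.81, beside -0.48 for all tested genes, of which 48.5% fell. Col5a1 fell by 2.73 on the log2 scale, and Loxl2, the member not called on this scale, stood at 82.8 against 71.3 (0.20 ± 0.19, limma, adjusted p = 0.380). Fn1 differed by 0.65 in the same comparison.

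Among 8 tested genes for proteases of matrix proteins and plasminogen activation, 4 rose and 1 fell with PDGF at 2 h (4 and 1 on the median-centred scale too). The tissue plasminogen activator gene Plat rose by 3.38 ± 0.13 and Adamts1 by 1.70 ± 0.15. At 24 h of PDGF 6 rose and 0 fell (4 and 1 on the median-centred scale), with Plat (3.12 ± 0.13) and Htra1 (2.06 ± 0.13) first. Of all tested genes, 17.7% rose with PDGF at 2 h and 37.7% at 24 h, while 12.7% and 4.85% fell. With JQ1 1 rose and 4 fell at 2 h (1 and 3 on the median-centred scale), and 1 rose and 6 fell at 24 h (2 and 3). Of all tested genes, 7.24% rose and 34% fell at 2 h, and 4.61% rose and 48.5% fell at 24 h. Adamts4 and Plau were not tested on the median-centred scale, so its counts cover 6 genes. The list's median was 0.70 and 0.97 with PDGF at 2 h and 24 h, and -0.55 and -0.87 with JQ1, beside 0.01, 0.41, -0.29 and -0.48 for all tested genes. The gelatinase gene Mmp2 fell most at 24 h, from 394 to 20.5 normalised FPKM (-4.20 ± 0.13, limma, adjusted p = 2.44e-12), while Plat rose from 288 to 852 (1.56 ± 0.12). Mmp3 and Mmp9 failed the filter.

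Genes linked to the induction of these proteins are called the inducer list. They encode TGF-beta ligands, receptors and SMADs (the inhibitory Smad7 among them), and transcription factors of the serum, AP-1, YAP and mesenchymal programmes. Of 21 listed genes, 19 were tested. With PDGF at 2 h 10 rose and 0 fell (10 and 1 on the median-centred scale), led by the AP-1 subunit gene Fosl1 (5.66 ± 0.25) and Egr1 (4.62 ± 0.16). At 24 h 13 rose and 2 fell (8 and 2 on the median-centred scale). Of all tested genes, 17.7% rose with PDGF at 2 h and 37.7% at 24 h, while 12.7% and 4.85% fell. Prrx1, a mesenchymal homeobox factor known to induce tenascin-C, stood at 23.2 unstimulated, 24.9 with PDGF at 2 h and 148 with PDGF at 24 h (2.64 ± 0.19 at 24 h against unstimulated, limma, adjusted p = 8.34e-08). The AP-1 subunit gene Jun rose (2.31 ± 0.14) and the TGF-beta ligand gene Tgfb3 fell by 2.07 on the log2 scale at 24 h.

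With JQ1 4 genes of the inducer list rose and 8 fell at 2 h, and 3 rose and 11 fell at 24 h. The median-centred scale gave 6 and 4 at 2 h, then 7 and 7 at 24 h. Of all tested genes, 7.24% rose and 34% fell at 2 h, and 4.61% rose and 48.5% fell at 24 h. The list's median was 0.80 and 0.59 with PDGF at 2 h and 24 h, and -0.29 and -0.79 with JQ1, beside 0.01, 0.41, -0.29 and -0.48 for all tested genes. Prrx1 was lower at both times (-2.61 ± 0.17 at 2 h and -2.58 ± 0.17 at 24 h), and so was Tgfb3 (-1.71 ± 0.12 and -2.64 ± 0.12). In the other direction, Fos was higher at 2 h (1.51 ± 0.22) and Egr1 at 24 h (1.64 ± 0.15).

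**Figure D4:**
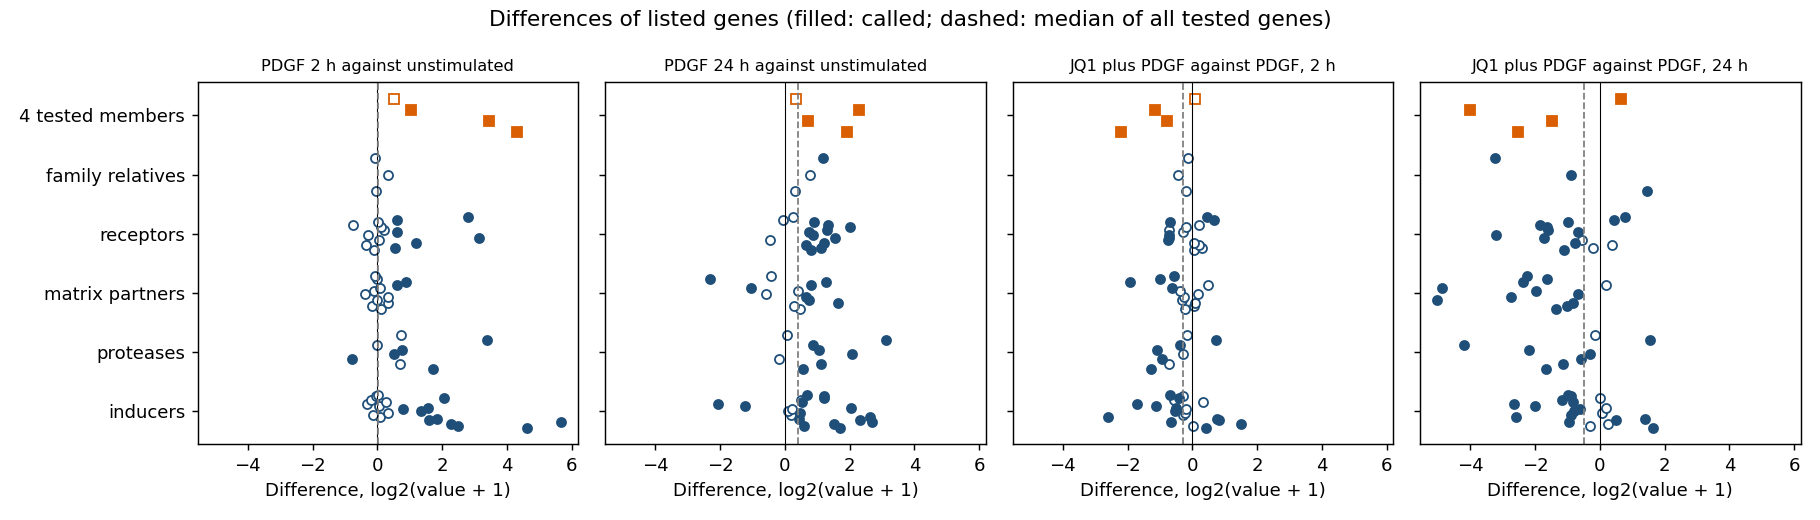
Differences on the log2(value + 1) scale for the 4 tested members (squares) and the genes of the 5 lists (circles) in 4 comparisons, filled where called, with a dashed line at the median of all tested genes. With JQ1 at 24 h the matrix partners lie left of 0 apart from Loxl2 at 0.20, and Fn1 is the member to the right at 0.65.

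Markers of the labelled cell type were present: all 8 smooth muscle markers were detected, their summed unnormalised FPKM spanning 10018 to 10416 unstimulated, 10857 to 11496 with PDGF at 2 h, 16677 to 16992 with JQ1 plus PDGF at 2 h, 1265 to 1509.7 with PDGF at 24 h and 385 to 450.2 with JQ1 plus PDGF at 24 h. These sums were mostly Acta2 and Tagln. The means of Acta2, Tagln and Smtn were higher with JQ1 at 2 h than with PDGF alone, and those of Cnn1, Myh11, Lmod1 and Myocd were lower. Des reached at most 1.09. Of 6 endothelial markers, 5 were under 1 in every library and Cdh5 was at 0. The 6 leukocyte markers, with Ptprc at 0, summed to 13.8 to 17.7 unstimulated, 17.9 to 22.9 with PDGF at 2 h, 6.72 to 11.9 with JQ1 plus PDGF at 2 h, 36.9 to 53.1 with PDGF at 24 h and 9.57 to 17.3 with JQ1 plus PDGF at 24 h. The 5 measured adventitial fibroblast markers, mostly Lum, with Dpt at 0, summed to 125 to 129.9 unstimulated, 102 to 115 with PDGF at 2 h, 90.2 to 108 with JQ1 plus PDGF at 2 h, 95.7 to 115 with PDGF at 24 h and 6.10 to 8.44 with JQ1 plus PDGF at 24 h. The smooth muscle, endothelial, leukocyte and fibroblast sums were all lower with JQ1 at 24 h, the comparison with the lowest Postn difference. The endothelial sum spanned 0.992 to 1.67 with PDGF at 24 h, mostly Tek, and 0.0637 to 0.239 with JQ1. The endothelial and leukocyte sums were, like Postn, highest with PDGF at 24 h. The leukocyte sum was mostly Cd14 there (mean 43.2, against 4.46 with JQ1). Cd68 went the other way (0.427 with PDGF at 24 h and 8.49 with JQ1), and 4 of the 6 leukocyte markers were under 1 in every library. The part of cells of these types in the Postn results was not tested. Between 9901 and 11503 genes were above 0 in a library, and spike-in transcripts made up 1.80 to 2.66% of the unnormalised FPKM (group means).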

How the data were processed

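The authors deposited 2 tables of 17404 features (17312 genes and 92 spike-ins) in 14 libraries, 1 of unnormalised and 1 of normalised FPKM. The submitters' processing notes name HISAT, Cufflinks 2.0.0 and build rn6. The annotation, the normalisation method and use of strand in counting are not given in the sources used here. FPKM hold no read counts, so depth is unknown and no interval or count model was used. Columns were put in groups by name. Column names end in digits but titles in letters, which leaves each column known by its group only, and 0 columns lacked a group. The members and gene lists were chosen with earlier results of these data known.

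The 10133 genes that reached a normalised FPKM of 1 in 2 or more libraries were tested, spike-ins left out, on the scale log2(normalised FPKM + 1). The test was limma (version 3.58.1, under R 4.3.3), with 1 model over 5 groups with 9 residual degrees of freedom and a mean trend, with Benjamini-Hochberg adjusted p. This scale understates changes of low genes. The code was tested on simulated data. For the median-centred scale, unnormalised FPKM were divided by median-ratio size factors (9980 genes tested). Other alternatives were a pseudocount of 0.1, no filter, only the groups compared, PDGF 2 h library 1 and PDGF 24 h library 0 left out together, and each library left out in turn.

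Named genes were the 5 members, up to 4 called genes of each list and comparison with the largest differences, uncalled list genes with their values, and the 3 genes most alike to each member (microRNA and small nucleolar loci left out). Of these, 1 list gene and 1 most alike gene are not reported here, and the list's counts leave its gene out. No protein sequences were used here, and promoter letters came from RefSeq (GRCr8). Coordinates in rn6 were not used here.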

Additional observations from a re-analysis of the deposited data

Results flagged for a closer look

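The JQ1 difference of Postn changed between 2 h and 24 h. Against PDGF alone it was -1.14 ± 0.11 at 2 h and -4.01 ± 0.11 at 24 h (log2 of normalised FPKM + 1, 3 libraries in each group), and the test of the change itself, the interaction of the limma fit, gave -2.87 ± 0.16 (adjusted p = 1.29e-08). It was -2.71 on the median-centred scale. Every JQ1 library was below every PDGF library at both times. No group had more than 3 libraries, so single libraries were not tested as outliers.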

How the results depend on the processing

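Of the alternatives to the 36 log2 differences of the members, 653 kept direction and call, 19 lost the call, 8 gained it and 4 changed sign. The sign changes were Fn1 with PDGF at 24 h against unstimulated (-0.14) and Postn with JQ1 plus PDGF at 2 h against unstimulated (0.16), both on the median-centred scale, Fn1 with PDGF at 24 h against 2 h (0.029 without PDGF 2 h library 2, range of single omissions -0.32 to 0.029) and Fn1 with JQ1 at 2 h (-0.079 without PDGF 2 h library 0, range -0.079 to 0.27). None of these was called in the reported fit. The number of members called for the change of the JQ1 difference was 1, against 3 on the median-centred scale and 1 to 2 with single libraries left out. For JQ1 plus PDGF at 24 h against unstimulated it was 4, against 2 to 4. The cause was not tested. Over all genes, PDGF at 2 h against unstimulated gave 3078 calls, against 1788 with only the compared groups fitted, 1606 without unstimulated library 0 and 1942 without library 1. PDGF at 24 h against unstimulated gave 4314, against 2819 on the median-centred scale and 2487 without unstimulated library 0. A lone unstimulated library was assumed to vary like the other groups. No paired analysis was possible because the columns carry digits that match no letter of the sample titles. Depth is unknown, which limits Thbs2 and other low genes most.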
